A study of Mus musculus with 24 samples.

Results

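The 8 genes Slc2a1, Slc2a2, Slc2a3, Hk1, Hk2, G6pc2, G6pc3 and Fbp1 act at the entry of glucose into the cell and at its conversion to and from phosphate esters. They were chosen by name, with earlier results of these data known, and all 8 were found among the 46517 gene entries measured. RNA came from βTC3 cells, an insulinoma line of mice that carry the Rip-Tag2 transgene, SV40 large T antigen under the rat insulin promoter, and develop pancreatic neuroendocrine tumours. The cells carried a doxycycline (DOX) inducible construct: PB-31 miR-23b cluster (called the miR-23b line below), PB-31 miR-137 (the miR-137 line), or the plasmid PB-31 alone (the control line). Cultures of each miRNA line were kept for 7 d in medium without DOX, for 7 d in 2 µg/ml DOX, or in DOX for 7 d and then out of it for 7 d more (withdrawn). The control line had the 7 d DOX condition and the no DOX condition, and each of the 8 groups had 3 libraries. The sources used here do not give whether each line is 1 clone or a pool. The question addressed is how expression responds to each induced miRNA and whether the response is undone when DOX is taken away.

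Glucose enters cells down its gradient through facilitative transporters of the GLUT family. Slc2a1 encodes GLUT1, which most cells use and whose gene is a well-known target of hypoxia signalling. Slc2a2 encodes GLUT2, a low-affinity transporter and the main one of rodent beta cells, and Slc2a3 encodes GLUT3, a high-affinity transporter typical of neurons. Inside the cell, hexokinases add phosphate to glucose. Hk1 and Hk2 are high-affinity enzymes that glucose 6-phosphate inhibits. Glucose-6-phosphatases do the reverse. G6pc2 is the islet form, and G6pc3 is found in most tissues. Fbp1 encodes fructose-1,6-bisphosphatase, the gluconeogenic enzyme that opposes phosphofructokinase.

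Libraries held 15759849 to 24144737 reads counted in genes, and all 8 genes were among the 14866 that passed the filter on low counts. The control libraries with 7 d DOX listed 20898 to 21066 genes with a count, against 19090 to 20336 genes in the other libraries. Reads counted at the loci of the induced miRNAs followed the labels, as far as polyA libraries can show, since they do not measure mature miRNAs. Such counts do not separate transcripts of the construct from those of the genomic loci. Mir23b, Mir27b and Mir24-1 averaged 51.9, 83.4 and 101 CPM (read counts scaled to library size) in the miR-23b line with 7 d DOX, against 0.156, 0.490 and 0.652 CPM without DOX. Mir137 itself had no count in any library, and the transcript that spans it, Gm26871, averaged 123 ± 3.3 CPM in the miR-137 line with 7 d DOX and 4.41 ± 0.39 CPM without DOX (SD, n = 3 each). All 10 beta cell markers were detected, with a summed level of 15264 to 19818 CPM. The acinar gene Prss2 and the T cell gene Cd3e were at 0 in every library. In bulk samples like these, fewer cells of a type and less RNA per cell cannot be told apart.

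The mature miRNAs are shown because their seeds, bases 2 to 8 and here in capitals, set which transcripts they can pair with. The sequences are those of RefSeq (GRCm38.p6), and the cluster also encodes miR-23b-3p. No seed is shared among the 3 miRNAs shown.
miR-27b-3p: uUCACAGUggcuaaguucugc
miR-24-3p: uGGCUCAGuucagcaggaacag
miR-137-3p: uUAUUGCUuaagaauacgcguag
The longest annotated 3′ UTR of each of the 8 genes was searched on its own strand for the complement of bases 2 to 8. None of the 8 held ACTGTGA, the match to miR-27b-3p, which 17.9% of tested genes with an annotated UTR hold. None held CTGAGCC, the match to miR-24-3p, which 19.6% hold. AGCAATA, the match to miR-137-3p, occurred once, in Hk1, and in 10.6% of tested genes. That Hk1 stretch lies at chr10:62268874-62268896 (GRCm38, minus strand).
Hk1: tcccaaatgaaatgaAGCAATAa
Hk1 is described below, and its level did not pass the test for a change with DOX in the miR-137 line. These letters are a match and not a shown site, and the search covers these windows and the 3 miRNAs shown only.

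On a per-length scale the genes spread over a very wide range, as the plot of TPM by library shows. G6pc2 was far above the others, with 795 to 1335 TPM (a measure that corrects for transcript length) over the 24 libraries and a median of 926 TPM. Hk1 had a median of 77.3 TPM, G6pc3 of 53.5 TPM and Slc2a1 of 33.6 TPM. Slc2a3 had a median of 4.92 TPM, Slc2a2 of 2.84 TPM and Fbp1 of 2.74 TPM. Hk2 was close to absent, with 0 to 0.290 TPM. The beta cell transporter Slc2a2 thus stood below the ubiquitous transporter Slc2a1 in every group.

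**Figure D1:**
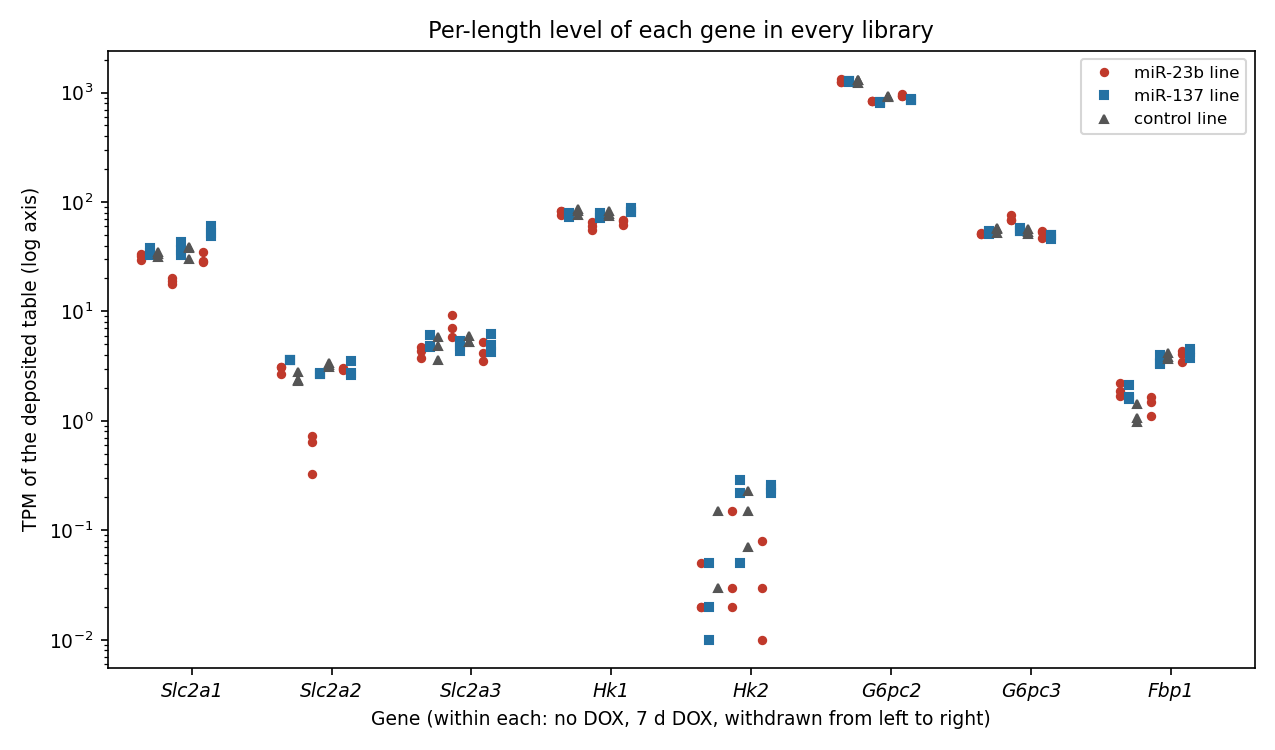
Level of each gene in every library on the per-length TPM scale (log axis), with conditions left to right within each gene as no DOX, 7 d DOX and withdrawn. G6pc2 lies at 795 to 1335 TPM and Hk2 at or below 0.290 TPM, and libraries listed at 0 TPM are not drawn.

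Slc2a2 had the largest change of the 8 genes with induction of the miR-23b cluster. Slc2a2 (ENSMUSG00000027690, chr3:28697903-28731359, plus strand, GRCm38) had 1.83, 1.57 and 2.16 CPM in the miR-23b line with 7 d DOX, against 9.76, 8.58 and 9.04 CPM without DOX. The groups lay far apart, and the level fell to 20.1% of that without DOX. The log2 fold change was -2.31 (SE 0.13, n = 3 each, adjusted p = 8.16e-18, edgeR's quasi-likelihood test with Benjamini-Hochberg adjustment over all tested genes, as for every adjusted p below). Behind the low values were 35 to 40 reads per library. With DOX 2 of the 10 beta cell markers rose and 7 fell in the miR-23b line. Of all tested genes 28.8% rose and 28.6% fell there (57.4% called). The markers' median log2 fold change there was -0.28 against 0.01 over all tested genes. In the miR-137 line 5 markers rose and 3 fell, where 21% of all tested genes rose and 21.8% fell. In the control line 4 markers rose and 2 fell, where 18.5% of all tested genes rose and 19.3% fell. The markers' summed level in the miR-23b line was 15264 to 15824 CPM with 7 d DOX and 17429.6 to 17629 CPM without DOX. The part of these markers in the fall of Slc2a2 was not tested.

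The control line did not share this fall. Slc2a2 had 8.46, 8.94 and 9.20 CPM in the control line with 7 d DOX and 8.44, 7.31 and 7.14 CPM without DOX. That difference did not pass the test (adjusted p = 0.0868). The response of the miR-23b line was lower than that of the control line by a log2 difference of -2.53 (SE 0.17, adjusted p = 5.34e-15).

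In the miR-137 line Slc2a2 fell by a smaller step. It had 8.18, 7.67 and 7.82 CPM with 7 d DOX, against 10.4, 10.6 and 9.81 CPM without DOX (log2 fold change -0.38, SE 0.09, adjusted p = 0.00105). The response differed from that of the control line by a log2 difference of -0.59 (SE 0.14, adjusted p = 0.00278). The call with DOX was lost on the log2(TPM + 0.1) scale (adjusted p = 0.0622 by limma). Without DOX the lines also differed, as the miR-137 line averaged 10.3 ± 0.41 CPM and the control line 7.63 ± 0.70 CPM (SD, n = 3 each, adjusted p = 0.00934). With DOX in both lines, the level in the miR-137 line did not differ from the control line by this test (adjusted p = 0.204). The difference without DOX was lost when no DOX replicate 2 or 3 of the control line or replicate 2 of the miR-137 line was left out (adjusted p of 0.0591, 0.0722 and 0.0541 by edgeR).

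Slc2a1 (ENSMUSG00000028645, chr4:119108711-119137983, plus strand) was also lower with the miR-23b cluster. It had 32.9, 29.2 and 32.9 CPM in the miR-23b line with 7 d DOX, against 61.2, 54.9 and 60.1 CPM without DOX. The groups did not overlap, and the log2 fold change was -0.89 (SE 0.10, adjusted p = 2.47e-10). Control libraries had 58.1, 72.1 and 70.4 CPM with 7 d DOX and 61.1, 64.3 and 57.3 CPM without DOX, which overlapped. The response of the miR-23b line was lower by a log2 difference of -1.03 against the control line (SE 0.13, adjusted p = 3.01e-08) and of -1.05 against the miR-137 line (SE 0.13, adjusted p = 2.03e-08).

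Slc2a3 (ENSMUSG00000003153, chr6:122727809-122801640, minus strand) moved the opposite way. It had 12.0, 9.76 and 9.99 CPM in the miR-23b line with 7 d DOX, against 7.37, 7.04 and 7.90 CPM without DOX. The log2 fold change was 0.52 (SE 0.11, adjusted p = 9.3e-05), and all 3 libraries with DOX were above all 3 without. In the other lines it did not pass the test with DOX (adjusted p = 0.368 in the miR-137 line and 0.92 in the control line). The response of the miR-23b line was higher than that of the control line by 0.53 on the log2 scale (SE 0.16, adjusted p = 0.0062), but did not pass on the log2(TPM + 1) scale (adjusted p = 0.121 by limma). Against the miR-137 line's response the log2 difference was 0.38 (SE 0.16, adjusted p = 0.0603 by edgeR), which did not pass the test.

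Summed over the 3 transporters, TPM was 26.9 ± 1.72 in the miR-23b line with 7 d DOX and 38.9 ± 2.51 without DOX (SD, n = 3 each). Slc2a1 held 70.6% ± 4.80 of that sum with 7 d DOX and 81.3% ± 1.07 without DOX. Slc2a3 held 27.3% ± 5.07 with 7 d DOX and 11.0% ± 1.33 without DOX, and Slc2a2 held 2.09% ± 0.73 with 7 d DOX and 7.63% ± 0.26 without DOX. The mix thus leaned further toward Slc2a3 in the induced libraries, as shares with no test.

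Hk1 (ENSMUSG00000037012, chr10:62268855-62379908, minus strand) fell with the miR-23b cluster. It had 65.6, 64.5 and 72.3 CPM in the miR-23b line with 7 d DOX, against 103, 92.3 and 103 CPM without DOX. The log2 fold change was -0.56 (SE 0.05, adjusted p = 2.54e-13). Control averages were 92.9 ± 1.12 CPM with 7 d DOX and 96.6 ± 2.29 CPM without DOX, and in the miR-137 line 91.4 ± 1.86 CPM with 7 d DOX and 94.8 ± 6.02 CPM without DOX (SD, n = 3 each). Neither of those passed the test. The response of the miR-23b line was lower by -0.51 on the log2 scale against the control line (SE 0.06, adjusted p = 4.47e-08) and by the same -0.51 against the miR-137 line (SE 0.06, adjusted p = 4.69e-08).

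Hk2 (ENSMUSG00000000628, chr6:82725025-82774454, minus strand) was at the limit of detection. Its libraries held between 0 and 26 reads, and 3 reads over the 3 libraries of a group would be 0.0431 to 0.0588 CPM. In the miR-137 line it had 11, 9 and 12 reads with 7 d DOX, against 1, 3 and 6 reads without DOX (log2 fold change 1.63, SE 0.54, adjusted p = 0.0131). This call was lost when replicate 1 or 2 without DOX or replicate 3 with DOX was left out (adjusted p of 0.074, 0.0597 and 0.0523). In the control line it had 7, 7 and 12 reads with 7 d DOX, against 5, 0 and 5 reads without DOX. That difference did not pass the test (log2 fold change 1.22, SE 0.57, adjusted p = 0.0894). Its response in the miR-137 line did not differ from the control line's by the test (log2 difference 0.41, SE 0.84, adjusted p = 0.818). In the miR-23b line it had 3, 2 and 4 reads with 7 d DOX and 3, 2 and 3 reads without DOX, which no test could separate at this depth.

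G6pc2 (ENSMUSG00000005232, chr2:69211073-69227841, plus strand) fell with DOX in all 3 lines, the control line included. It had 928, 919 and 910 CPM in the miR-23b line with 7 d DOX, against 1503, 1588 and 1485 CPM without DOX (log2 fold change -0.73, SE 0.03, adjusted p = 3.72e-21). In the miR-137 line it had 991, 975 and 918 CPM with 7 d DOX, against 1496, 1533 and 1503 CPM without DOX (log2 fold change -0.65, SE 0.03, adjusted p = 4.76e-19). In the control line it had 1105, 1072 and 1063 CPM with 7 d DOX, against 1429, 1506 and 1537 CPM without DOX (log2 fold change -0.46, SE 0.03, adjusted p = 1.21e-14).

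Every library with DOX was thus below every library without it. The fall was larger than in the control line by -0.27 in the miR-23b line (SE 0.05, adjusted p = 1.37e-05) and by -0.19 in the miR-137 line (SE 0.05, adjusted p = 0.00541), both as log2 differences. The miRNA lines did not differ from each other in this by the test (adjusted p = 0.186). These comparisons share the control libraries. No date, plate or run is labelled, so DOX and any batch shared by the cultures without DOX cannot be told apart.

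G6pc3 (ENSMUSG00000034793, chr11:102189620-102194081, plus strand) rose with the miR-23b cluster. It had 40.6, 38.4 and 39.1 CPM in the miR-23b line with 7 d DOX, against 29.9, 30.6 and 31.4 CPM without DOX (log2 fold change 0.36, SE 0.05, adjusted p = 3.3e-07). Control libraries stayed between 31.6 and 33.6 CPM in both conditions. The response was higher than that of the control line by 0.38 (SE 0.08, adjusted p = 0.000114) and than that of the miR-137 line by 0.31 (SE 0.08, adjusted p = 0.00138), as log2 differences.

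Fbp1 (ENSMUSG00000069805, chr13:62864753-62888282, minus strand) rose with DOX in the control and miR-137 lines. It had 4.68, 5.12 and 5.20 CPM in the miR-137 line with 7 d DOX, against 2.48, 2.14 and 2.56 CPM without DOX (log2 fold change 1.07, SE 0.15, adjusted p = 1.14e-07). In the control line it had 5.36, 5.09 and 4.57 CPM with 7 d DOX, against 1.30, 1.46 and 1.85 CPM without DOX (log2 fold change 1.70, SE 0.16, adjusted p = 4.1e-11).

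In the miR-23b line it had 2.05, 2.05 and 1.97 CPM with 7 d DOX, against 3.17, 2.15 and 2.17 CPM without DOX, which did not pass the test (adjusted p = 0.196). The response was therefore lower than that of the control line by -1.97 (SE 0.24, adjusted p = 2.99e-08) and than that of the miR-137 line by -1.34 (SE 0.23, adjusted p = 1.47e-05), as log2 differences. Without DOX the miR-23b line was above the control line (log2 fold change 0.67, SE 0.19, adjusted p = 0.0292). That call was lost without replicate 1 or 2 of the control line or replicate 1 of the miR-23b line (adjusted p of 0.156, 0.0997 and 0.232). Fbp1 lies 412201 bases from Mir23b and 76610 bases from the host gene 2010111I01Rik on the same chromosome. The cluster was induced from a construct, and a link of this distance to the Fbp1 values was not tested.

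Liver and kidney also use Slc2a2 and Fbp1, and alpha cell genes moved with DOX. The summed CPM of the alpha cell marker list, led by Ttr and Gcg, was 269 to 283 in the miR-23b line with 7 d DOX against 141 to 156 without DOX, 304 to 347 in the miR-137 line with 7 d DOX against 122 to 134 without DOX, and 233 to 304 in the control line with 7 d DOX against 117 to 131 without DOX. The hepatocyte list of Alb, Apoa1 and Ttr summed to 191 to 308 CPM in the libraries that had met DOX and 97.9 to 131 CPM in those that had not. Ttr, which both lists hold, made up most of it, and Alb averaged at most 2.64 CPM. The kidney proximal tubule list of Slc34a1, Lrp2 and Slc5a2 was low, with an average sum in the miR-23b line of 1.12 CPM with 7 d DOX and 2.03 CPM without DOX. Of its 2 tested genes 1 fell there, where 28.6% of all tested genes fell. The part of these lists in the values of Slc2a2, Fbp1 and G6pc2 was not tested.

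**Figure D2:**
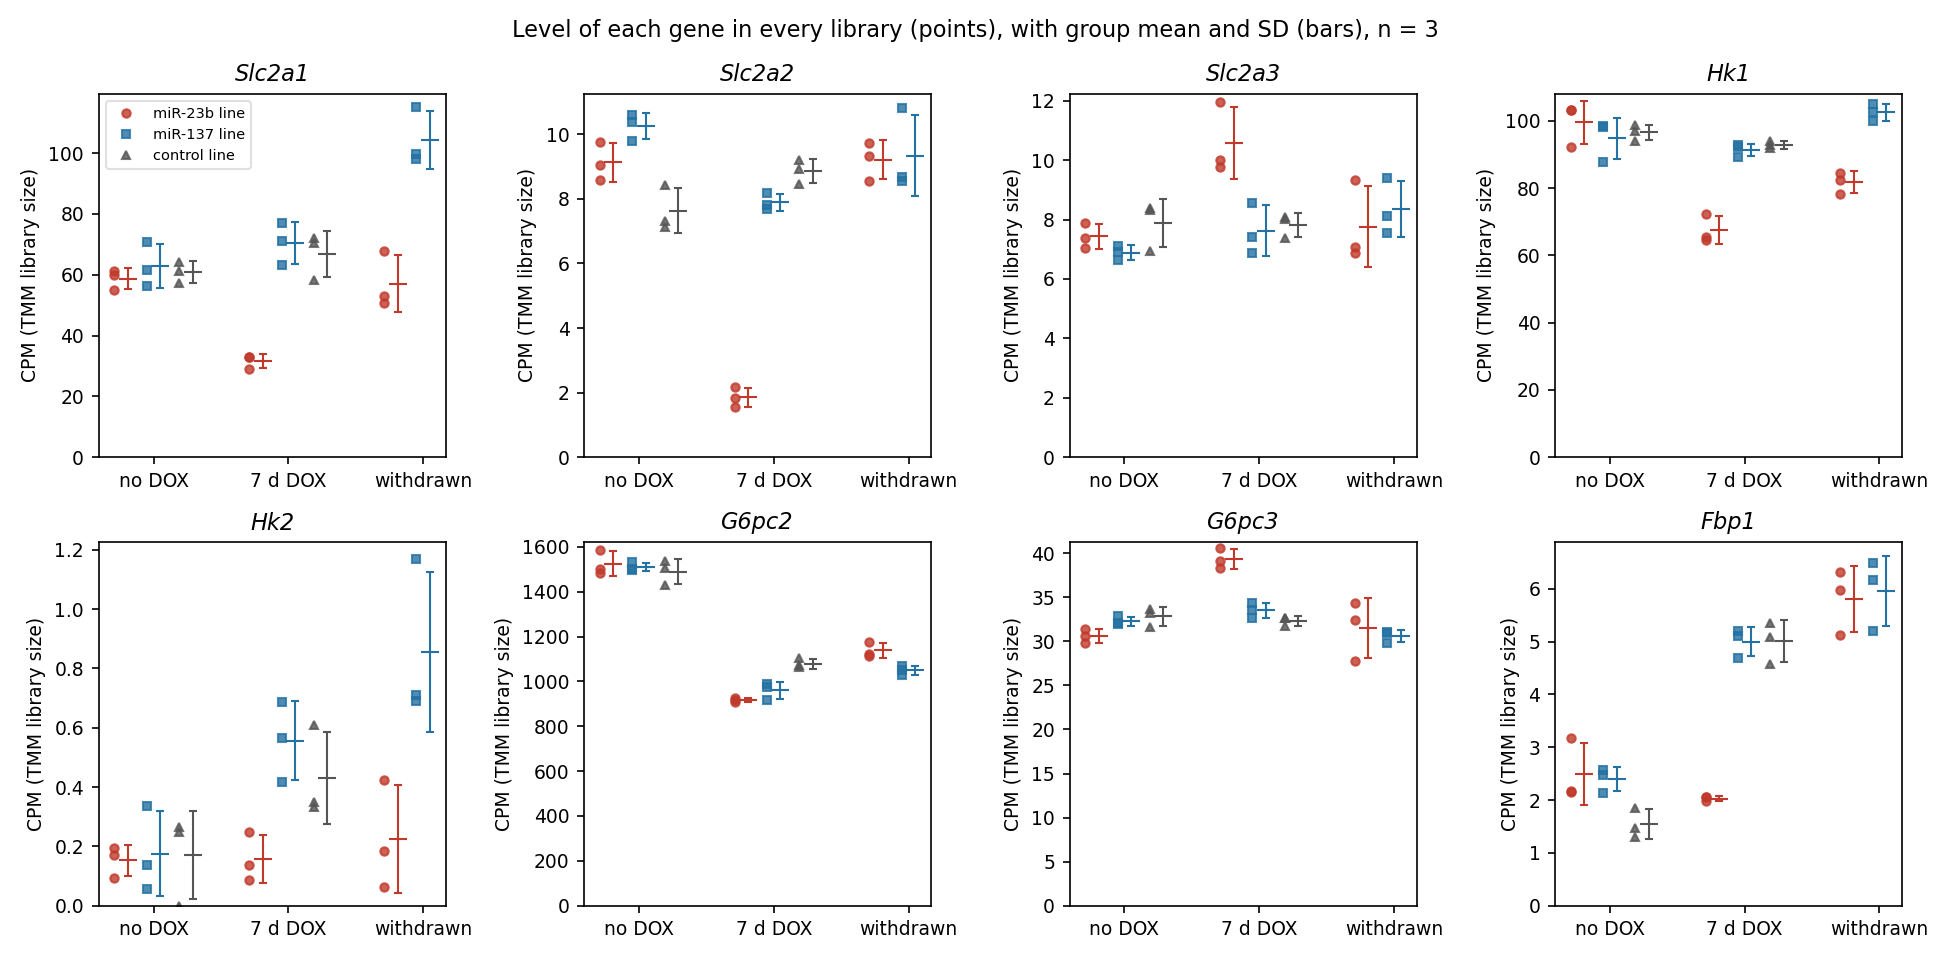
CPM of each gene in every library by condition and line, with the group mean and SD beside the points (n = 3). Slc2a2 in the miR-23b line with 7 d DOX sits at 1.57 to 2.16 CPM, below every other library, and G6pc2 sits lower in all libraries that had met DOX.

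Counted over the 8 genes, 2 rose and 4 fell with DOX in the miR-23b line, where 28.8% of all tested genes rose and 28.6% fell (57.4% called in all). In the miR-137 line 2 rose and 2 fell, where 21% of all tested genes rose and 21.8% fell (42.9% called). The control line had 1 that rose and 1 that fell, where 18.5% of all tested genes rose and 19.3% fell (37.8% called). With so large a part of all tested genes called, these counts are not a result about the 8 genes as a set.

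Against the control line's response, the miR-23b response was higher for 2 genes and lower for 5, where 18.1% of all tested genes were higher and 19.4% lower (37.6% called). The miR-137 response was lower than the control line's for 2 genes and higher for none, where 5.9% of all tested genes were higher and 4.78% lower (10.7% called). Between the miRNA lines, the miR-23b response was higher for 1 gene and lower for 4, where 16.8% of all tested genes were higher and 18.4% lower (35.2% called).

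The median log2 difference between the miR-23b and control responses was -0.77 over the 8 genes and -0.01 over all tested genes. The 8 genes were chosen with earlier results of these data known, so this median is not a result about them as a set. On the TPM scale more genes of the whole table rose: 67.0% of the calls in the miR-23b line with DOX were higher, against 50.2% on the CPM scale. For the miR-23b response against the control line's, these shares were 69.9% on the TPM scale and 48.3% on the CPM scale. Against the miR-137 line's response they were 73.9% on the TPM scale and 47.7% on the CPM scale.

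**Figure D3:**
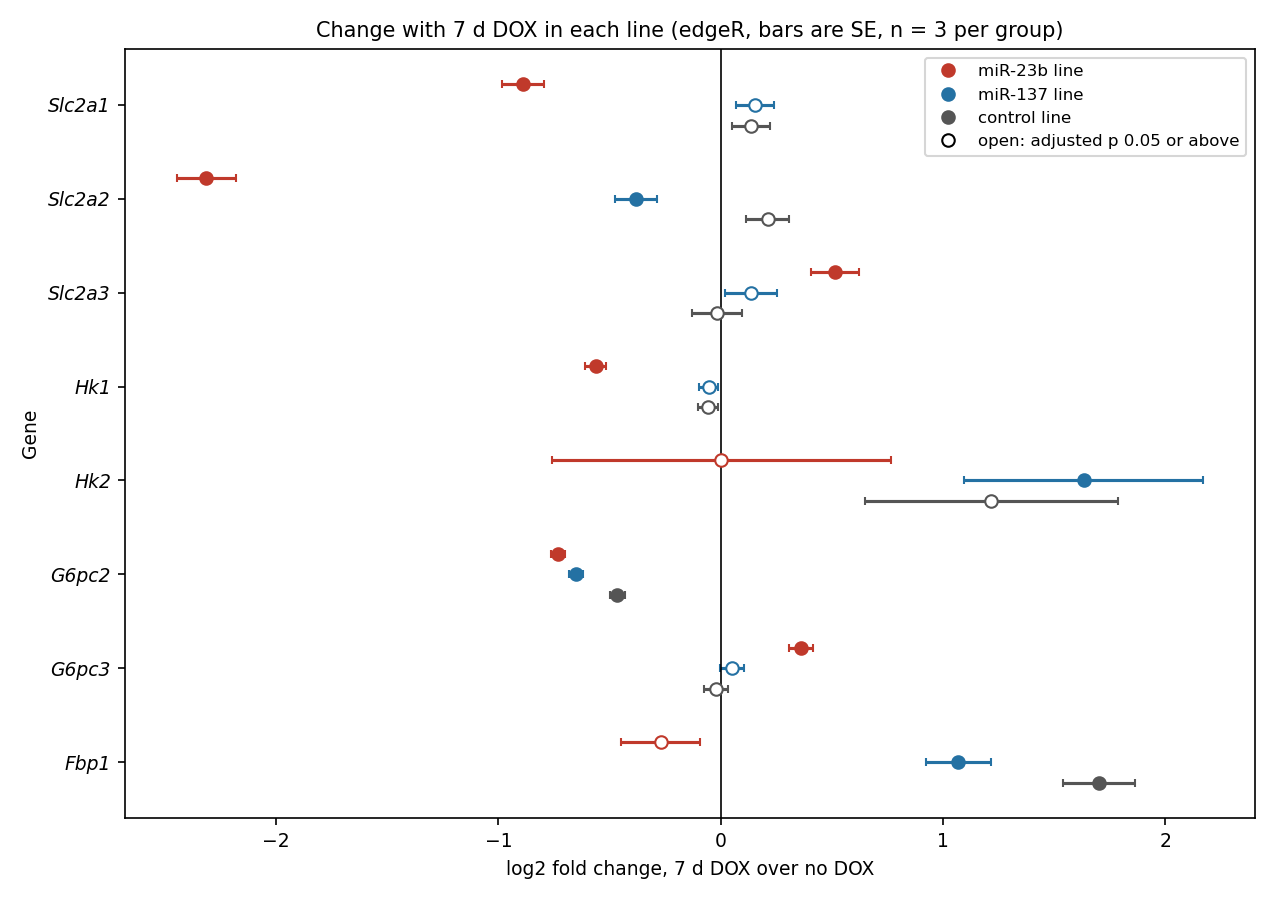
Log2 fold change with 7 d DOX over no DOX for each gene in the miR-23b, miR-137 and control lines, with SE bars (n = 3 per group) and filled points at adjusted p below 0.05. Slc2a2, Slc2a1 and Hk1 fall in the miR-23b line at -2.31, -0.89 and -0.56, while G6pc2 falls in all 3 lines.

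Set side by side with DOX in both, the miR-23b line differed from the control line in all 8 genes, 2 higher and 6 lower, where 25.9% of all tested genes were higher and 26.3% lower (52.2% called). Slc2a2 stood at 20.6% and Slc2a1 at 47.2% of the control level with DOX. Fbp1 stood at 40.6% (log2 fold change -1.30, SE 0.15, adjusted p = 1.6e-09). Of these calls, Hk2 was lower by edgeR (adjusted p = 0.0284) but not by DESeq2 (adjusted p = 0.0528) or without replicate 3 of the control line (adjusted p = 0.146 by edgeR) or replicates 1 or 2 of the miR-23b line (adjusted p of 0.0729 and 0.126). On the TPM scale 64.0% of all calls were higher, against 49.5% on the CPM scale, and Slc2a3 did not pass there (adjusted p = 0.0801).

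The miR-137 line with DOX differed from the control line with DOX in 1 of the 8 genes, which was lower, where 14.7% of all tested genes were higher and 12.6% lower (27.3% called). That gene was G6pc2 (961 ± 38.5 CPM in the miR-137 line and 1080 ± 22.3 CPM in the control line, SD, n = 3 each, adjusted p = 0.000111). Of all calls, 53.7% were higher on the CPM scale and 41.6% on the TPM scale. Without DOX in both, Fbp1 alone of the 8 genes differed between the miR-23b and control lines and was higher, where 3.59% of all tested genes were higher and 2.78% lower (6.37% called). On the TPM scale 33.7% of those calls were higher, against 56.3% on the CPM scale. Between the miR-137 and control lines Slc2a2 was the 1 gene that differed and was higher, where 1.89% of all tested genes were higher and 0.814% lower (2.7% called).

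In the withdrawn miR-23b cultures, some genes that had changed with DOX did not differ from no DOX by the test, and others still did. A difference that did not pass is not a shown return to the level without DOX. Withdrawn cultures of both miRNA lines were also kept longer, and no control culture was withdrawn. Removal of DOX and the longer culture therefore cannot be told apart for any of these genes. Against 7 d DOX, 5 genes were higher and 2 lower after withdrawal, where 26.4% of all tested genes were higher and 25.8% lower (52.2% called). On the TPM scale 27.8% of all calls were higher, against 50.6% on the CPM scale. Slc2a2 had 9.34, 8.55 and 9.73 CPM in the withdrawn cultures (log2 fold change over 7 d DOX 2.34, SE 0.13, adjusted p = 1.8e-17). Those libraries overlapped the 8.58 to 9.76 CPM of the cultures without DOX, and the difference did not pass the test (adjusted p = 0.888).

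Slc2a1 had 67.8, 50.6 and 52.9 CPM in the withdrawn cultures, which overlapped the no DOX libraries (adjusted p = 0.839). Slc2a3 had 9.34, 7.07 and 6.87 CPM and G6pc3 had 27.8, 34.4 and 32.4 CPM after withdrawal, and neither differed from no DOX by the test (adjusted p = 0.633 and 0.655).

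Hk1 and G6pc2 stayed below the no DOX level in the withdrawn miR-23b line, and Fbp1, which had not passed the test with DOX, was above it. Against no DOX, 1 of the 8 genes was higher and 2 were lower, where 19.2% of all tested genes were higher and 20.6% lower (39.8% called). Hk1 had 84.5, 82.6 and 78.3 CPM in the withdrawn cultures, between the groups with and without DOX (log2 fold change over no DOX -0.28, SE 0.05, adjusted p = 4.84e-06). Its rise over 7 d DOX was 0.28 on the log2 scale (SE 0.05, adjusted p = 3.72e-06) but did not pass on the log2(TPM + 1) scale (adjusted p = 0.125 by limma). G6pc2 had 1177, 1123 and 1115 CPM in the withdrawn cultures (log2 fold change over no DOX -0.42, SE 0.03, adjusted p = 1.73e-13). Its withdrawn level was 74.6% of the no DOX level. Over 7 d DOX it was higher by 0.31 on the log2 scale (SE 0.03, adjusted p = 3.14e-10), without overlap of the libraries.

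Fbp1 had 5.12, 6.32 and 5.98 CPM in the withdrawn miR-23b cultures, above both earlier conditions. The log2 fold change was 1.50 over 7 d DOX (SE 0.15, adjusted p = 5.18e-11) and 1.24 over no DOX (SE 0.15, adjusted p = 7.41e-09). No control culture was withdrawn and no untreated culture was kept as long, so the longer culture and the earlier DOX cannot be told apart here.

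In the miR-137 line Slc2a1 was highest after withdrawal. It had 98.1, 115 and 99.7 CPM in the withdrawn cultures, against 71.1, 63.1 and 77.1 CPM with 7 d DOX and 61.5, 70.6 and 56.3 CPM without DOX. The log2 fold change was 0.57 over 7 d DOX (SE 0.08, adjusted p = 4.39e-07) and 0.73 over no DOX (SE 0.08, adjusted p = 1.08e-09). The 3 withdrawn libraries were above all other libraries of the series. The withdrawn miR-23b cultures stood at 55.1% of this level (adjusted p = 5.28e-10).

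Against no DOX, 5 of the 8 genes were higher in the withdrawn miR-137 line and 1 lower, where 21.6% of all tested genes were higher and 21.7% lower (43.4% called). On the TPM scale 39.5% of all calls were higher, against 49.9% on the CPM scale. Fbp1 had 6.48, 5.21 and 6.17 CPM (log2 fold change 1.32, SE 0.14, adjusted p = 2.24e-10). Hk2 had 16, 26 and 17 reads, against 1, 3 and 6 reads without DOX (log2 fold change 2.26, SE 0.47, adjusted p = 0.000149). G6pc2 had 1052, 1027 and 1069 CPM, again below the no DOX libraries (log2 fold change -0.53, SE 0.03, adjusted p = 2.39e-16).

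The remaining 2 calls were weak. Slc2a3 averaged 8.35 ± 0.94 CPM in the withdrawn miR-137 line and 6.89 ± 0.24 CPM without DOX (SD, n = 3 each, adjusted p = 0.0422), and its log2 difference was -0.026 on the log2(TPM + 1) scale. Hk1 averaged 103 ± 2.44 CPM in the withdrawn line and 94.8 ± 6.02 CPM without DOX (SD, n = 3 each, adjusted p = 0.0361). Leaving out 1 library ended the Slc2a3 call for any of the 3 no DOX libraries (adjusted p of 0.0612, 0.0964 and 0.113) and for withdrawn replicates 1 and 2 (0.0574 and 0.246). It ended the Hk1 call for no DOX replicate 3 (adjusted p = 0.311) and withdrawn replicates 2 and 3 (0.144 and 0.0752).

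Against 7 d DOX, 4 genes were higher and none lower in the withdrawn miR-137 line, where 14.7% of all tested genes were higher and 14.8% lower (29.5% called). Beside Slc2a1 these were Slc2a2, Hk1 and G6pc2, with log2 fold changes of 0.25, 0.17 and 0.13 (SE 0.09, 0.04 and 0.03). Slc2a2 lost its call when 7 d DOX replicate 1, 2 or 3 was left out (adjusted p of 0.0601, 0.137 and 0.0969) and likewise without withdrawn replicate 3 (0.4). G6pc2 lost it without replicate 3 of the 7 d DOX libraries (adjusted p = 0.0537). Without that library 2 of the 8 genes passed. Hk1 did not pass on the log2(TPM + 1) scale (adjusted p = 0.0948 by limma). The withdrawn miR-23b and miR-137 cultures differed in 4 of the 8 genes, 1 higher and 3 lower in the miR-23b line, where 6.2% of all tested genes were higher and 6.53% lower (12.7% called). The higher one was G6pc2 (log2 fold change 0.12, SE 0.03, adjusted p = 0.0125), which did not pass without withdrawn miR-23b replicate 1 (adjusted p = 0.083). The lower ones were Slc2a1, Hk1 and Hk2.

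**Figure D4:**
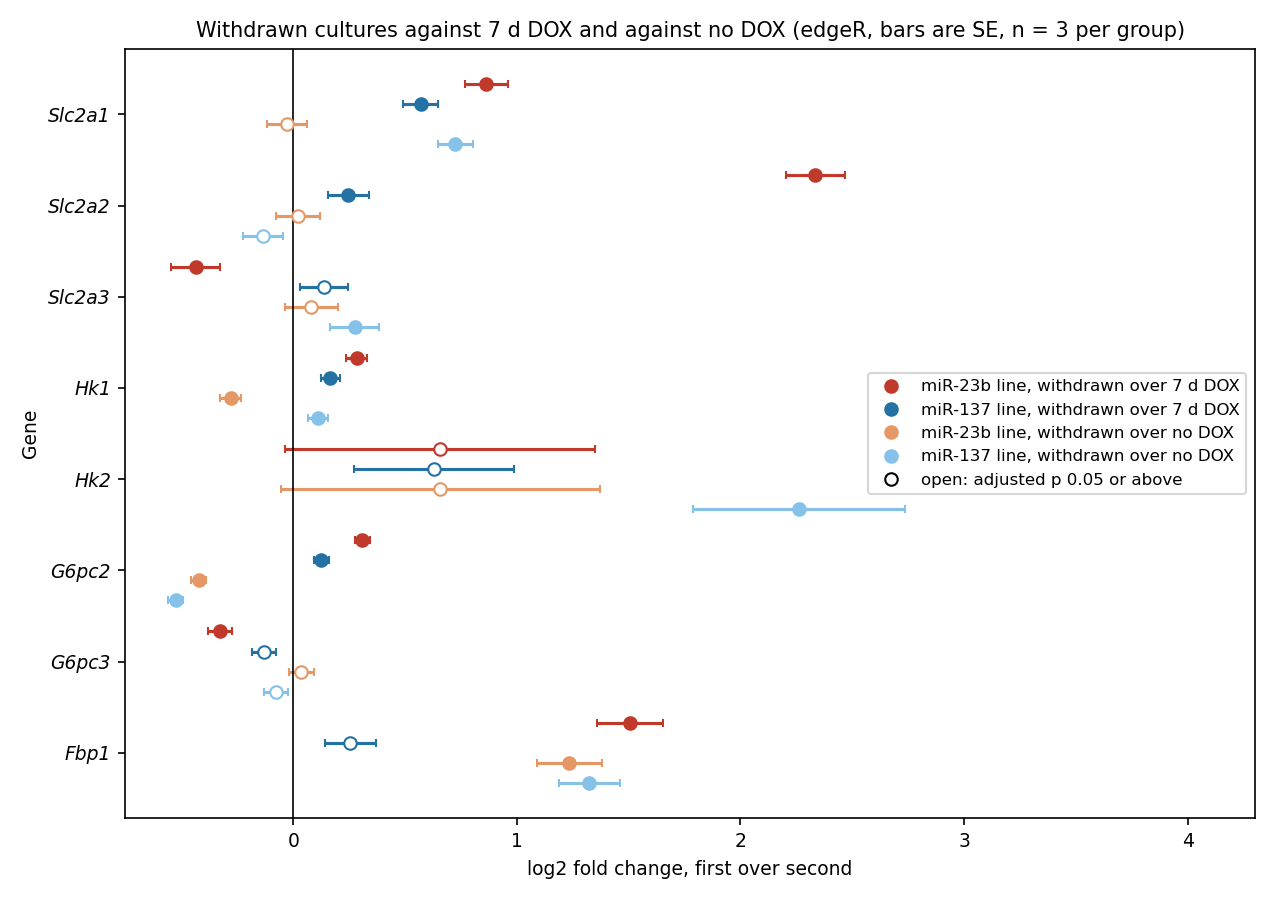
Log2 fold change of each gene in withdrawn cultures over 7 d DOX and over no DOX, in the miR-23b and miR-137 lines, with SE bars (n = 3 per group) and filled points at adjusted p below 0.05. Slc2a2 in the miR-23b line is at 2.34 over 7 d DOX and shows an open point beside 0 over no DOX, while Fbp1 lies at 1.24 and 1.32 over no DOX.

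Other genes of the same steps were read from lists of gene function, chosen with earlier results of these data known. The counts stand beside the shares of all tested genes called with DOX, which were 57.4% in the miR-23b line (28.8% higher, 28.6% lower), 42.9% in the miR-137 line (21% higher, 21.8% lower) and 37.8% in the control line (18.5% higher, 19.3% lower). Of 15 other glucose and hexose transporters 8 were tested. With DOX 5 rose and 2 fell in the miR-23b line, 5 rose and 2 fell in the miR-137 line, and 3 rose and 1 fell in the control line. Slc2a4, the insulin-regulated transporter of muscle and fat, averaged 11.5 ± 0.18 CPM in the miR-23b line with 7 d DOX and 4.87 ± 0.38 CPM without DOX (SD, n = 3 each, log2 fold change 1.25, SE 0.12). Its response exceeded that of the control line by 1.05 on the log2 scale (SE 0.19, adjusted p = 2.06e-05). Slc2a13, a proton-coupled inositol transporter, rose in all 3 lines, with log2 fold changes of 0.94 in the miR-23b line, 0.67 in the miR-137 line and 0.83 in the control line.

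Slc2a6 fell in all 3 lines with DOX, by 1.24 in the miR-23b line, 1.05 in the miR-137 line and 0.65 in the control line on the log2 scale. The fructose transporter Slc2a5 averaged 105 ± 1.91 TPM in the miR-23b line with 7 d DOX and 130 ± 4.62 TPM without DOX (SD, n = 3 each), above Slc2a1 in every group. Its response was below that of the control line by -0.35 in the miR-23b line (SE 0.05, adjusted p = 1.87e-07) and by -0.29 in the miR-137 line (SE 0.05, adjusted p = 3.53e-05).

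Of 10 other genes of glucose phosphate 8 were tested. In the miR-23b line with DOX 2 rose and 1 fell, in the miR-137 line 4 rose and none fell, and in the control line 3 rose and none fell. Slc37a4, the carrier that brings glucose 6-phosphate into the endoplasmic reticulum where the phosphatases act, rose by 0.39 in the miR-137 line and 0.33 in the control line. Its response in the miR-23b line was lower than the control line's by -0.41 (SE 0.09, adjusted p = 0.000266). Adpgk, which phosphorylates glucose with ADP, fell by 0.31 in the miR-23b line.

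All 9 tested genes of fructose phosphate changed with DOX in the miR-23b line, 2 higher and 7 lower, with a median log2 fold change of -0.50 against 0.01 over all tested genes. The phosphofructokinases Pfkl and Pfkp had log2 fold changes of -1.54 and -1.45 (SE 0.06 and 0.07), and the isomerase Gpi1 had -1.10 (SE 0.05). In the miR-137 line 1 rose and 6 fell. In the control line 1 rose and 4 fell, and Pfkp and Gpi1 were among these at -0.60 and -0.40. Pfkfb3, which makes the activator of phosphofructokinase, rose in the miR-137 line at 1.36 and in the control line at 1.08. Its response in the miR-23b line was lower than the control line's by -1.47 (SE 0.12, adjusted p = 3.27e-12).

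Of 13 tested genes on the branches from glucose 6-phosphate 2 rose and 7 fell with DOX in the miR-23b line, none rose and 6 fell in the miR-137 line, and 1 rose and 7 fell in the control line. Falls were thus as many in the control line as in the miR-23b line. Phosphoglucomutase Pgm1 had a log2 fold change of -1.51 there and -0.43 in the control line, and the glycogen synthase Gys1 had -1.24. Their responses were below the control line's by -1.08 and -1.04 (SE 0.08 and 0.10). Pgm2 had a log2 fold change of -0.50 in the miR-137 line with DOX, below the control line's response by -0.64 (SE 0.10, adjusted p = 9.83e-06). Of 4 tested genes of gluconeogenesis entry 3 fell and none rose in each of the 3 lines, where 28.6%, 21.8% and 19.3% of all tested genes fell in the miR-23b, miR-137 and control lines.

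Of 5 genes of glucose-sensing transcription 2 fell and none rose with DOX in the miR-23b line, 3 rose and 1 fell in the miR-137 line, and 2 rose and none fell in the control line. Txnip, a well-known glucose-induced gene, averaged 53.3 ± 2.1 CPM in the miR-23b line with 7 d DOX and 50.5 ± 4.4 CPM without DOX. The control line averaged 105 ± 5.0 CPM with 7 d DOX and 57.0 ± 3.4 CPM without DOX (SD, n = 3 each). Its response was below the control line's by -0.80 in the miR-23b line (SE 0.08, adjusted p = 6.21e-10) and by -0.50 in the miR-137 line (SE 0.08, adjusted p = 3.06e-05). Of 16 tested regulators 2 rose and 9 fell with DOX in the miR-23b line, 5 rose and 5 fell in the miR-137 line, and 2 rose and 6 fell in the control line. Pdx1, a beta cell factor that binds the Slc2a2 gene, averaged 242 ± 8.6 CPM in the miR-23b line with 7 d DOX and 326 ± 13 CPM without DOX (SD, n = 3 each, log2 fold change -0.43, SE 0.04). The prolyl hydroxylase Egln3, itself a hypoxia target, had -1.50 (SE 0.14) in the miR-23b line. With DOX it also passed the test in the miR-137 and control lines. Its response in the miR-23b line was lower than the control line's by edgeR. On log2(TPM + 0.1) that log2 difference was -0.41 (SE 0.16) and did not pass (adjusted p = 0.0552 by limma). Hnf4a rose in the miR-137 line by 0.59 (SE 0.04, adjusted p = 8.04e-15). Its response there was higher than the control line's by edgeR. On log2(TPM + 1) that log2 difference was 0.26 (SE 0.09) and did not pass (adjusted p = 0.0953 by limma). Without DOX, Hnf4a was already higher in the miR-137 line than in the control line by edgeR.

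Promoters of Slc2a1, Hk1 and G6pc3 are printed to show the letters of the motifs searched. They were chosen after the matches were seen, among genes that changed with the miR-23b cluster, and promoters without a match are not printed. RefSeq (GRCm38.p6) gave 9 promoters for the 7 genes other than Slc2a3, each with 250 bases before and 50 after the start. Capitals mark ACGTG, the core of hypoxia response elements, or CACGTG, an E-box, each searched on both strands. Every CACGTG also holds ACGTG.
Slc2a1, chr4:119108495-119108794, plus strand: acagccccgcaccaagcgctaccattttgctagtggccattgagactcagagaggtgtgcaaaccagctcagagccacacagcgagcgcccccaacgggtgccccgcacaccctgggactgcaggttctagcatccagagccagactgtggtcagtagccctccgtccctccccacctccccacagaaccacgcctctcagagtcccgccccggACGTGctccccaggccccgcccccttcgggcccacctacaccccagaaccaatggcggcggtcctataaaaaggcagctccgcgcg
Hk1, chr10:62340372-62340671, minus strand: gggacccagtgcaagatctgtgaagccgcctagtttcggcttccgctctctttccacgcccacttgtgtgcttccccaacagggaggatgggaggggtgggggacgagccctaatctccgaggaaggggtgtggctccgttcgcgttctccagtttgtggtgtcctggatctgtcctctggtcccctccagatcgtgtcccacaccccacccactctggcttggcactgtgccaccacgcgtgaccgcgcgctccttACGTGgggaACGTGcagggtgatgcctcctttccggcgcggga
G6pc3, chr11:102189449-102189748, plus strand: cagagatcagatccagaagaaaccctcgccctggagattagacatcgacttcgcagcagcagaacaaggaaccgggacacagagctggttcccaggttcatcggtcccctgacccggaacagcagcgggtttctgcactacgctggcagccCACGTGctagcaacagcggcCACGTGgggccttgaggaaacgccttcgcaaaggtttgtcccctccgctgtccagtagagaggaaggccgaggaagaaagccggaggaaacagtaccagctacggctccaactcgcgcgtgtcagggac
ACGTG was in 5 of the 9 promoters, and in 19.6% of all 32851 promoters of the table. CACGTG was in 1 of the 9, that of G6pc3, at 99 and 79 bases before the start, and in 7.15% of all promoters. The single ACGTG of Slc2a1 begins 36 bases before the start, and those of Hk1 begin 8 and 17 bases after it. Hk2 holds ACGTG at 226 and 52 bases before its start, and 1 of the 2 G6pc2 promoters holds it at 13 bases before. Hk1 has a further promoter in the table without either motif, and none was found in those of Slc2a2 and Fbp1. These are matches of letters and not shown sites.

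Across the 24 libraries, the genes whose log2 CPM was most like each of the 8 were read out among 10465 genes. These correlations describe libraries that share a line, a condition and DOX. Slc2a1 was most like Jmjd6, P4ha1 and P4ha2 (Pearson r of 0.965, 0.962 and 0.948), the last 2 of which are collagen prolyl hydroxylases. Hk1 was most like Gys1, Pdk1 and Slc16a3 (0.960, 0.946 and 0.945), which encode a glycogen synthase, a kinase of pyruvate dehydrogenase and a lactate exporter. Slc2a2 was most like Nup50, Timmdc1 and Agpat3 (0.972, 0.970 and 0.969).

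G6pc2 was most like Atp2a2, the calcium pump of the endoplasmic reticulum, then Creg1 and Sord (0.988, 0.987 and 0.987). Fbp1 was most like Pdia6, Sec24d and Surf4 (0.939, 0.935 and 0.934), genes of protein folding and export from the endoplasmic reticulum. G6pc3 was most like Ulk1, an autophagy kinase, then Ltbp3 and Cbx6 (0.905, 0.892 and 0.890). Slc2a3 was most like Wdr48, Gid4 and Qars (0.843, 0.793 and 0.790), and Hk2 like Zfp607b, Rlf and Smarcc2 (0.857, 0.790 and 0.788). Among the 8 genes themselves, Slc2a1 and Hk1 had r = 0.846, Slc2a2 and Hk1 r = 0.835, and Slc2a2 and G6pc3 r = -0.840, over the same 24 libraries.

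In the order of group means, Slc2a2 and Slc2a1 were lowest in the miR-23b line with 7 d DOX, apart from the next group by non-overlapping libraries. G6pc2 was lowest there with libraries that overlapped the next group, and Hk1 was lowest there without such overlap. Slc2a3 and G6pc3 were highest there, again without overlap with the next group. The ratio of the highest to the lowest group mean in CPM was 5.60 for Hk2, which rests on few reads, 5.54 for Slc2a2, 3.87 for Fbp1, 3.30 for Slc2a1, 1.66 for G6pc2, 1.53 for Slc2a3, 1.52 for Hk1 and 1.29 for G6pc3. The coefficient of variation within groups averaged 2.59% for G6pc2, 3.44% for G6pc3 and 3.87% for Hk1, against 7.90% to 11.1% for the 3 transporters and Fbp1 and 53.5% for Hk2.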

How the data were processed

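PolyA RNA of 24 cultures in 8 groups was sequenced after a stranded kit, per the labels' protocols. The authors deposited raw read counts per gene, without normalization. A further deposited table was read as TPM, scaled by the authors per library and length, since each column had the same sum (999999.26 to 1000001.26). Per the submitters' processing notes, RSEM 1.2.19, STAR 2.4.0g, featureCounts, HTSeq 0.6.1 and cutadapt 1.3 were used with GRCm38 and mm10. The sources used here do not say which tool made which table. Reads placed at more than 1 site (25.4% to 27.7% of those listed) and reads outside genes (9.62% to 12.1%) stayed out.

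Counts were fitted in R 4.3.3 with edgeR 4.0.16 (filterByExpr, TMM, 1 model of 8 group means over 24 libraries, quasi-likelihood F test, adjusted p below 0.05 within each of 15 comparisons). CPM use TMM library sizes. SE is the size of the log2 fold change over the square root of F. Logged CPM used a prior count of 2. Alternatives were RLE scaling, no low count filter, DESeq2 1.42.0, limma 3.58.1 on log2(TPM + 1) and log2(TPM + 0.1), the groups compared alone, a replicate block and leaving out each library. The fit was tested on simulated data. Cells were plated in triplicate and nothing gives separate experiments, so p-values measure a spread that may be technical.

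The 8 genes and the lists were chosen with earlier results of these data known. All 8 genes were named. From each list up to 3 genes per comparison could be named, with the largest absolute log2 fold change among those past the test, at 5 CPM or more in the higher group and without overlap. The 3 most alike genes had a mean of 5 CPM or more. Lists gave genes of other cell types, transporters, sugar phosphates and regulators. Hk2 and other genes near the floor of 3 counts carry counting error that the SE may understate. Results of some listed genes are not reported here.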

Additional observations from a re-analysis of the deposited data

Results flagged for a closer look

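The response to 7 d DOX differed between lines by the test of the difference itself for 7 of the 8 genes. Of all tested genes, 37.6% were called for the miR-23b against control response and 10.7% for the miR-137 against control response. For the miR-23b against miR-137 response 35.2% were called. The count of 7 pools these tests over genes chosen with earlier results known, so it is not a result about the 8 genes as a set. Between the miR-23b and control lines, the log2 differences were -1.03 for Slc2a1, -2.53 for Slc2a2, 0.53 for Slc2a3, -0.51 for Hk1, -0.27 for G6pc2, 0.38 for G6pc3 and -1.97 for Fbp1. Between the miR-137 and control lines, they were -0.59 for Slc2a2 and -0.19 for G6pc2. Between the miR-23b and miR-137 lines, they were -1.05 for Slc2a1, -1.93 for Slc2a2, -0.51 for Hk1, 0.31 for G6pc3 and -1.34 for Fbp1. These differences share libraries, since each line's cultures without DOX and the control line's libraries enter more than 1 of them. That of Slc2a3 did not pass on log2(TPM + 1) or log2(TPM + 0.1) (adjusted p = 0.121 and 0.134 by limma).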

How the results depend on the processing

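Of 61 calls of the 8 genes over the 15 comparisons, 46 held under every alternative run, and 15 were lost or reversed under at least 1. All calls of Slc2a1 and G6pc3 held, and Hk2 lost 3 of its 4. The 1 reversal was Slc2a3 in the withdrawn miR-137 line against no DOX, at -0.026 on log2(TPM + 1) and -0.032 on log2(TPM + 0.1). Of 53 calls followed for genes of the other lists, 4 were lost under at least 1 alternative: those of Egln3 and Slc2a6 (miR-23b against control response) and of Hnf4a and Pdx1 (miR-137 against control response). On log2(TPM + 0.1), the median log2 difference of all genes was 0.11 between the miR-23b and miR-137 responses and -0.11 in the withdrawn miR-23b line against 7 d DOX, both near 0 on CPM. No other scaling moved that median by over 0.1.

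Replicate numbers did not pair the libraries: same-number correlations ran between -0.236 and 0.296. Calls are given here as a percent of the tested genes. With the replicate block, 16.4% were called between the miR-137 and control lines with DOX (27.3% without it). Between the withdrawn lines 6.78% and 2 of the 8 were called (12.7% and 4 without it). Without DOX, 2.29% and 0 of the 8 were called for the miR-23b line (6.37% and 1 without it), and 0.975% and 0 of the 8 for the miR-137 line (2.7% and 1 without it), each against the control line. On log2(TPM + 1) and log2(TPM + 0.1) those shares were 2.85% and 2.76% for the miR-23b line, and 1.02% and 0.982% for the miR-137 line, with 0 of the 8 in the last. Leaving out 1 library gave 3.13% to 4.55% and 0 to 1 of the 8 for the miR-23b line, and 1.14% to 1.98% and 0 to 1 of the 8 for the miR-137 line. In the withdrawn miR-137 line against 7 d DOX it gave 23.6% to 28.6% and 2 to 5 of the 8 (29.5% and 4 with all libraries). The causes of these moves were not tested, beyond the fewer libraries or degrees of freedom that the fits without a library and with the block have. Depth limits Hk2 most.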
